A study of Mus musculus with 6 samples.

Results

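Ferritin and iron handling genes were described as 8 members named by symbol: the ferritin chains Ftl1 and Fth1, the ferritin cargo receptor Ncoa4, the iron transporters Slc11a1 and Slc40a1, the transferrin receptor Tfrc, the heme oxygenase Hmox1 and the iron regulatory protein gene Ireb2. All 8 were found among the 55401 genes of the count table. The table holds 6 RNA-seq libraries labelled as basophils sorted from the blood of wild-type (WT) mice, 3 in set B and 3 in set A. The gate took live CD45+ cells without lineage markers that carried CD49b and FcεRIα or IgE. The mice had MC903, a vitamin D analogue that induces dermatitis, put on both ears daily (2 nmol in 10 µL of ethanol, day 0 to day 6), or ethanol alone. The labels at hand tie neither treatment to a set and state no age, and B is therefore stated relative to A throughout. The labels name blood and the design text names ear skin. The labels speak of pooled RNA and do not tie the libraries to different mice, and the p-values below thus reflect library-to-library spread alone, possibly technical.

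Cells store iron inside ferritin, a hollow protein shell built from heavy chains, which oxidise iron, and light chains, which help it to form a mineral core. Iron regulatory proteins bind a hairpin in the messenger RNA, the iron-responsive element, when iron is scarce: bound near the 5′ end it blocks translation of ferritin and ferroportin, and bound near the 3′ end it protects the transferrin receptor message from decay. In blood leukocytes iron handling is best known from monocytes, macrophages and neutrophils. Because part of this control acts on translation, a level of ferritin RNA is not a level of ferritin protein.

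The element is shown here because it divides the members by a feature that their expression values did not enter. The letters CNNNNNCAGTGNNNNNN, with a loop of 6 bases that starts CAGTG, does not end in G and is closed by 5 base pairs (G with T allowed), were searched on the sense strand of GENCODE M21 transcripts (GRCm38). Of 21901 protein-coding genes searched, 222 (1.01%) held the pattern somewhere in a protein-coding transcript. The 7 matches in the principal transcripts of the members are printed 5′ to 3′ with the loop in capitals.
Ftl1, 5′ untranslated region: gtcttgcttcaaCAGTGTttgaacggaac
Fth1, 5′ untranslated region: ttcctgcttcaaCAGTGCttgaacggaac
Slc40a1, 5′ untranslated region: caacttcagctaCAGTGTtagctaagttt
Tfrc, 3′ untranslated region: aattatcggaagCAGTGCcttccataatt
Tfrc, 3′ untranslated region: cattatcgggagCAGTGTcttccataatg
Tfrc, 3′ untranslated region: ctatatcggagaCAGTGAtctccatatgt
Tfrc, 3′ untranslated region: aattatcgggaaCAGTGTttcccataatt

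Both ferritin chains and the exporter thus held 1 match each before the coding sequence, and the transferrin receptor held 4 after it. Only matches to this pattern were counted, so an element of another form would be missed. The Ftl1 and Fth1 elements share 26 of 29 printed bases, and counted from the first printed base they differ by G1T, T4C and T18C (Ftl1 first). No match was found in Slc11a1, Hmox1, Ireb2 or Ncoa4. This says only that the letters closed by 5 base pairs are not in the principal transcript of each.

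The libraries went partly against their label. Total counts ran from 49742321 to 63956911 in B and from 46137963 to 55116567 in A, whereas the labels state a yield of about 1000000 reads per sample, so the number of sequenced fragments behind a count is not known. The 9 basophil markers had a summed level of 1449 to 3209 CPM in B, against 39.7 to 385 CPM in A, where CPM is a gene's count over the library's total times 1000000. In A most of that sum came from Hdc (38.0, 62.2 and 267 CPM) and Gata2 (0.109, 45.65 and 116 CPM). Mcpt8 was at 0.762, 0.681 and 1.28 CPM in A, against 1173, 872 and 478 CPM in B. Fcer1a, which encodes the IgE-binding chain that the gate used, had 10736, 5584 and 2681 counts in B and 4, 0 and 0 in A. The 12 monocyte and macrophage markers reached 26010 to 35640 CPM in B, against 37360 to 44040 CPM in A, and the 12 neutrophil markers 12570 to 23440 CPM in B, against 2401 to 9830 CPM in A, without overlap in either list. Lyz2 alone made up 83.4% to 90.3% of the monocyte and macrophage sum, and the other 11 markers, at 3352, 4501 and 5897 CPM in B and 4281, 5371 and 5341 CPM in A, overlapped between the sets. The neutrophil sum without S100a8, its most abundant marker, still did not overlap. Ly6g of the neutrophil list was at 0 in every library, while all monocyte markers were detected. The 9 erythroid markers reached 109 to 186 CPM in B, against 269.5 to 630 CPM in A, with Alas2, Slc4a1 and Klf1 among those at 0. Without Hba-a1 the sums overlapped, at 77 CPM in B replicate 1, where Epor held 48.85 CPM, against 72.1 CPM in A replicate 1. Hba-a1 did not overlap (109, 59.4 and 143 CPM in B, 197, 335 and 299 CPM in A). Hba-a2 did not either (22.15, 42.1 and 30.6 CPM in B, 69.65, 103 and 170 CPM in A), whereas Hbb-bs and Hbb-bt overlapped. Epor went the other way, with 2430, 4 and 4 counts in B and 0 in A. The 8 markers of red pulp macrophages, the splenic cells that recycle iron from red cells, reached 125 to 341 CPM in B, against 26.9 to 77.3 CPM in A, leaving out Hmox1 and Slc40a1, which are members. C1qa, C1qb and C1qc, which other macrophages also express, carried at least 96.5% of that sum in every library, while Cd163 was at 0 throughout and Spic at 0 in 5 libraries. The list therefore does not show that red pulp macrophage RNA was present. In these bulk libraries, fewer cells of a type and less RNA per cell cannot be told apart.

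**Figure D1:**
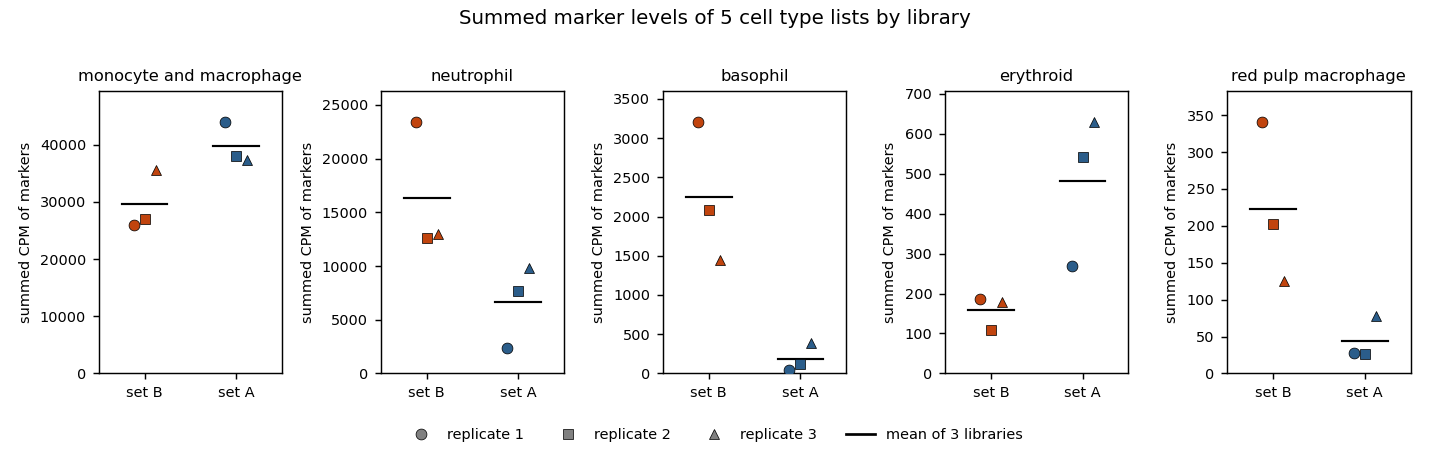
Summed level of 5 marker lists in each library (vertical axis, CPM; horizontal axis, set), with symbols for the 3 replicates and a line at the mean of a set. The monocyte and macrophage sum is at most 35640 CPM in the B libraries and at least 37360 CPM in the A libraries, a separation that is lost without Lyz2, and the neutrophil and basophil sums are higher in all B libraries than in any A library.

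Across the comparison of B with A, 0 of the 7 members that could be tested passed an adjusted p of 0.05 by edgeR's quasi-likelihood test, where 0.0217% of all 9196 tested genes passed. By DESeq2 0 members passed (7.16% of all genes with an adjusted p), and 0 passed by limma-voom (2.2%). At an unadjusted p under 0.05 edgeR also counted 0 members, against 6.36% of all genes tested. At that level DESeq2 and limma-voom each counted 1 member, against 1027 and 896 of all 9196 genes. Without B replicate 1 edgeR also counted 1 member, against 961 of 10866 genes. The sets overlapped for all 8 members, whereas 14.1% of all genes tested had no overlap. The 7 fitted log2 differences had a median of -0.73, with 2 above and 5 below 0, and all genes tested had a median of -0.06. This median falls between members of very different spread, as the following values show.

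Ftl1 (ENSMUSG00000050708), the ferritin light chain, was at 10212, 10310 and 14157 CPM in B replicates 1, 2 and 3 and at 10517, 11263 and 10641 CPM in A. The highest value was that of B replicate 3, and the other B libraries lay just below the range of A. The fitted log2 difference was 0.0006 (SE 0.17, adjusted p = 1.00 by edgeR), and its 95% interval runs from 0.750-fold to 1.33-fold. Ftl1 was the 3rd to 5th most abundant gene in B by CPM and the 5th to 9th in A, so ferritin light chain was among the leading transcripts of every library.

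Fth1 (ENSMUSG00000024661), the heavy chain with the iron-oxidising centre, was at 3732, 3221 and 3675 CPM in B and at 3518, 3208 and 3246 CPM in A. The values of the sets interleave. The log2 difference was -0.01 (SE 0.15, adjusted p = 1.00 by edgeR), with a 95% interval from 0.772-fold to 1.27-fold, and its rank by CPM was 21 to 28 in B and 23 to 28 in A. Its within-set SD of log2(CPM + 1) was 0.097, the 3rd smallest among the 117 tested genes with a mean of at least 1000 CPM, whose median SD was 0.30. Ftl1 stood 19th in that order with an SD of 0.19. Both ferritin transcripts were therefore measured with less spread than most genes of high abundance, and the intervals of both leave out a change of 1.5-fold in either direction.

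Together the ferritin chains took 1.39%, 1.35% and 1.78% of all counts in B and 1.40%, 1.45% and 1.39% in A. The means were 1.51% ± 0.237 in B and 1.41% ± 0.0304 in A (SD, n = 3 each), a difference of 0.0972 percentage points (exact 2-sided permutation p = 0.9, where 3 against 3 cannot go below 0.1). Without B replicate 3 the difference was -0.0393 percentage points. The direction of that difference thus rests on 1 library.

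The balance of the chains was read as a ratio within each library, which does not depend on scaling. Fth1 counts were 36.6%, 31.2% and 26.0% of Ftl1 counts in B and 33.4%, 28.5% and 30.5% in A. The extremes both lay in B, so the range of B encloses that of A. On the log2 scale the ratio was -1.69 ± 0.247 in B and -1.70 ± 0.116 in A (SD, n = 3 each; difference 0.0095, exact 2-sided permutation p = 1). Without A replicate 2 the difference was -0.0455 and without B replicate 1 it was -0.110.

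**Figure D2:**
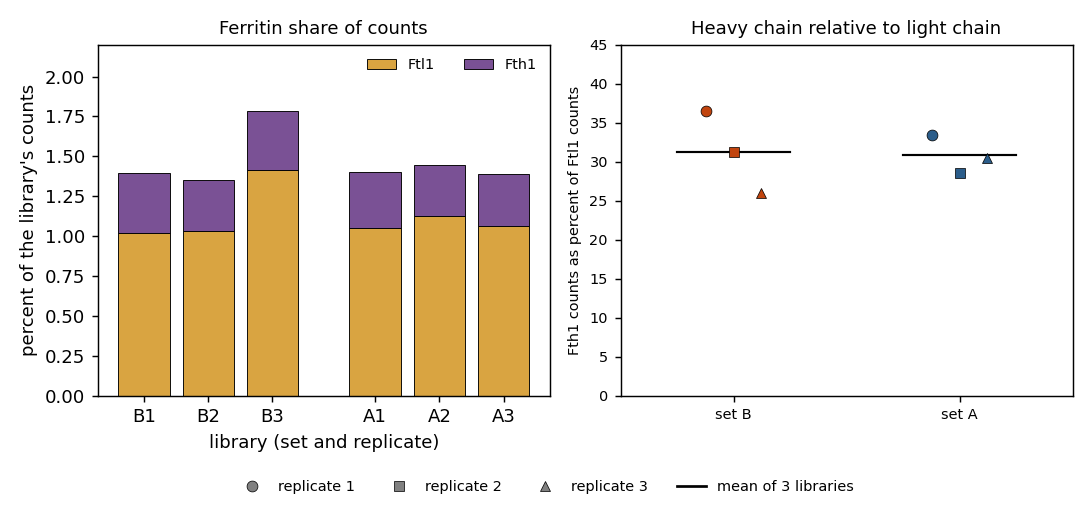
Left, percent of each library's counts (vertical axis) from Ftl1 and Fth1, stacked, for B replicates 1 to 3 and A replicates 1 to 3. Right, Fth1 counts as percent of Ftl1 counts by set, with a line at the mean. B3 has the highest share (1.78%) and the lowest heavy chain ratio (26.0%), and the other 5 libraries lie between 1.35% and 1.45%.

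Ferritin light chain has processed copies in the mouse genome that are near-identical to it, so reads may be split between them. Ftl1-ps1 matched Ftl1 at 99.6% of aligned bases and held 32065, 31238 and 56183 counts in B and 32011, 33148 and 27826 in A. Ftl2-ps matched at 98.7% and held 36873, 37125 and 53409 counts in B and 32272, 39117 and 31929 in A. These counts were 5.12% to 6.31% (Ftl1-ps1) and 5.90% to 7.26% (Ftl2-ps) of those of Ftl1 in B, and 5.52% to 5.67% and 5.57% to 6.57% in A. Both copies were high in B replicate 3, as Ftl1 itself was. How shared reads were assigned is not stated, so the Ftl1 level is uncertain to that extent. The Fth1 copies Fth-ps2 and Fth-ps3 had 0 counts in all 6 libraries.

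Ncoa4 (ENSMUSG00000056234) carries ferritin to the lysosome, where its iron is released. It was at 5.57, 0.0338 and 12.4 CPM in B and at 69.3, 119 and 0.0867 CPM in A. Replicates 1 and 2 of A were higher than every B library, and A replicate 3 was close to 0, so the sets overlap. The log2 difference of -3.48 had an SE of 2.71 (adjusted p = 1.00 by edgeR), and the 95% interval runs from 0.000974-fold to 8.19-fold.

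Slc11a1 (ENSMUSG00000026177), known as Nramp1, pumps metal ions out of the phagosome of macrophages and neutrophils. It was at 367, 292 and 167 CPM in B and at 330, 447 and 502 CPM in A. A replicate 1 fell between B replicates 1 and 2, and the other A libraries were above all of B. Slc11a1 had the smallest p among the members. Its log2 difference was -0.73 (SE 0.35, unadjusted p = 0.0759, adjusted p = 0.977 by edgeR; adjusted p = 0.362 by DESeq2 and 0.387 by limma-voom), with a 95% interval from 0.339-fold to 1.07-fold. In the same libraries the neutrophil marker sum was higher in B, and the monocyte and macrophage sum was lower in B through Lyz2, with its other 11 markers overlapping; the part of either in the Slc11a1 level was not tested.

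Slc40a1 (ENSMUSG00000025993) encodes ferroportin, the only known cellular iron exporter of mammals. It was at 192, 69.5 and 43.5 CPM in B and at 0.0726, 93.4 and 124 CPM in A. A replicate 1 held 4 counts, and the other 5 libraries overlap. The log2 difference was 0.44 (SE 1.81, adjusted p = 1.00 by edgeR) and turned to -0.13 without A replicate 1 and to -0.43 without B replicate 1.

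Tfrc (ENSMUSG00000022797), the receptor that takes up transferrin-bound iron and is high in dividing and erythroid cells, was counted 214 times (3.35 CPM) in B replicate 3 and never in the remaining 5 libraries. It did not pass the filter on low counts and was not tested. A count of 0 allows up to 3 counts, or 0.0507 to 0.0603 CPM in B replicates 1 and 2 and 0.0544 to 0.0650 CPM in A. These limits cover counting error only, since amplified copies are counted as separate reads, and they are too low if 1 fragment adds more than 1 to a count, as the excess of values equal to 4 leaves possible. Tfrc, the member with 4 matches to the pattern, had the lowest level, and a link between matches and level was not tested.

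Hmox1 (ENSMUSG00000005413), the inducible enzyme that frees iron from heme, was at 0.623, 29.6 and 30.1 CPM in B and at 90.8, 131 and 0.694 CPM in A. Each set held 1 library under 1 CPM, and the other A libraries were above the other B libraries. The log2 difference was -2.01 (SE 2.08, adjusted p = 1.00 by edgeR), with a 95% interval from 0.00776-fold to 7.90-fold. By limma-voom it was -0.10.

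Ireb2 (ENSMUSG00000032293) encodes iron regulatory protein 2, which binds the elements printed above. It was at 34.4, 0.203 and 22.0 CPM in B and at 0.0726, 101 and 7.26 CPM in A. Each set again held 1 library near 0, and A replicate 2 was the highest. The log2 difference was -0.998 (SE 2.56, adjusted p = 1.00 by edgeR), and it was 2.39 without A replicate 2, so that 1 library fixes its sign.

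**Figure D3:**
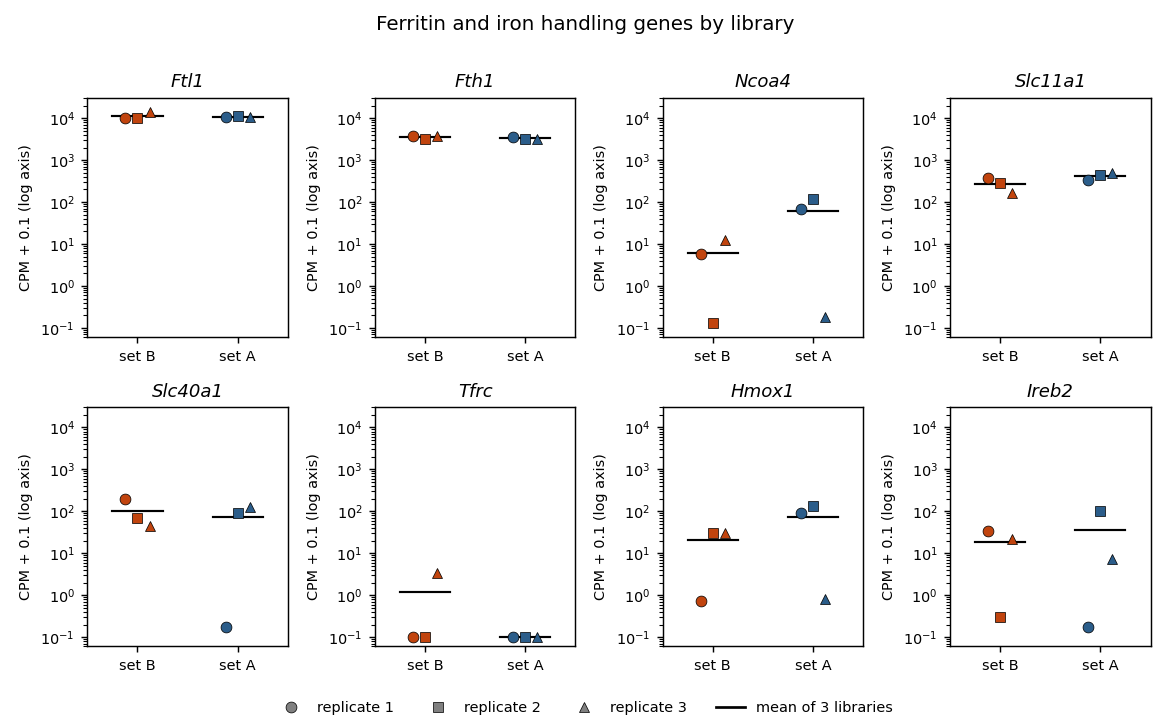
Level of each member by library (vertical axis, CPM + 0.1 on a log axis; horizontal axis, set), with symbols for the 3 replicates and a line at the mean of a set. Ftl1 and Fth1 stay within 1.39-fold in B and within 1.10-fold in A, whereas Ncoa4, Hmox1 and Ireb2 each hold 1 library under 1 CPM in both sets.

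The members divided by spread rather than by set. The highest B library was 1.39 times the lowest for Ftl1 and 1.16 times for Fth1, and in A these ratios were 1.07 and 1.10. For Hmox1 the ratio was 48.3 in B and 188 in A, and for Ncoa4 it was 367 in B and 1374 in A. Among the 4 members with a mean between 10 and 100 CPM (Slc40a1, Hmox1, Ireb2 and Ncoa4), 7 of 24 library values (29.2%) were under 1 CPM, against 28% of the values of all 5285 tested genes in that range. Values near 0 in single libraries were therefore about as frequent among these members as among other genes of their abundance. The libraries concerned differed: B replicate 1 for Hmox1, B replicate 2 for Ireb2 and Ncoa4, A replicate 1 for Slc40a1 and Ireb2, and A replicate 3 for Hmox1 and Ncoa4. The number of members at 10 CPM or more was 5, 5 and 7 in B and 5, 7 and 4 in A.

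Levels can be set beside each other only per length of transcript. Per kilobase of the principal GENCODE transcript, the mean over the 6 libraries was 11553 CPM for Ftl1 and 3696 CPM for Fth1, and every Ftl1 value exceeded every Fth1 value. Slc11a1 followed at 152 CPM per kilobase, with 72.0 to 158 in B and 142 to 217 in A. Below it came Hmox1 (30.0), Slc40a1 (25.8), Ncoa4 (10.3) and Ireb2 (4.77 CPM per kilobase), whose ranges over the libraries overlap, so that their order is not settled beyond their spread. Tfrc was last at 0.114 CPM per kilobase.

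For the 3 members with a mean of at least 100 CPM, likeness was the root mean square distance between mean-centred log2 CPM values over the 6 libraries, among 1795 other genes of at least 100 CPM. Nearest to Fth1 were Psma7, a proteasome subunit (0.076), Atp5mpl, an ATP synthase component (0.10), and Ost4, a subunit of oligosaccharyltransferase (0.12), where the median distance was 0.65. Nearest to Slc11a1 were Snapin (0.17), Hnrnpk, an RNA-binding protein (0.17), and BC005624 (0.21), with a median of 0.84. Nearest to Ftl1 were Gm22133 (0.050), Rpl35, a ribosomal protein (0.050), and Gm10269 (0.081), with a median of 0.67. These distances describe 6 libraries that share a protocol, and with so many candidates a small distance is easily met.

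The other genes of iron metabolism were read from 9 lists by role, with 106 genes in all. Of these, 19 had 0 counts in every library and 71 could be tested. Over all 71, 0 passed in either direction by edgeR, 6 had an unadjusted p under 0.05 with the higher level in B and 0 with the lower (5.05% and 1.32% of all genes tested), and the median log2 difference was -0.11. DESeq2 called 4 of them (Slc7a11, Herc2, Flvcr1 and Ltf) and limma-voom 2 (Slc7a11 and Herc2), all higher in B. Those are 5.63% and 2.82% of the 71, against 7.16% and 2.2% of all genes, and most calls over all genes were also higher in B (491 higher and 104 lower by DESeq2, 195 and 7 by limma-voom). The sets had no overlap for 11 of the 71, 8 higher (11.3%) and 3 lower (4.23%) in B, where 10.2% and 3.91% of all genes tested did so.

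Among 5 genes that act on iron regulatory proteins or their turnover, 4 were tested, and 2 had higher values in every B library than in any A library, as did 10.2% of all genes tested. Fbxl5, the iron-sensing ubiquitin ligase subunit that marks iron regulatory proteins for degradation, was at 120, 125 and 115 CPM in B and at 0.399, 19.4 and 12.6 CPM in A. B was nearly constant, and every A library was below it. The log2 difference was 3.42 (SE 1.49, unadjusted p = 0.0586, adjusted p = 0.857 by edgeR, 0.102 by DESeq2 and 0.384 by limma-voom). Herc2, a large ubiquitin ligase reported in human cells to act on NCOA4 and on FBXL5, had 681, 1388 and 963 counts in B (13.7, 23.5 and 15.1 CPM) and 0, 0 and 4 counts in A. Its adjusted p was 0.508 by edgeR, 2.29e-05 by DESeq2 and 0.0345 by limma-voom. Skp1a, the adaptor that binds F-box proteins such as Fbxl5, was at 151 to 311 CPM in B, against 161 to 287 CPM in A, and Cul1, the scaffold of that ligase, at 11.2 to 76.0 CPM in B, against 38.8 to 81.7 CPM in A. Aco1, iron regulatory protein 1, had 149 counts in B replicate 3 and 0 elsewhere, the same single library that held Tfrc (chosen for mention after its values were seen). That library had the most genes with at least 1 count, 14066 against 9242 to 12176 in the others. Slc39a14 (591 counts), Abcb10 (175) and Nqo1 (54), chosen likewise, were also counted in it alone.

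Of 13 genes for heme breakdown and heme transport, 8 were tested. Hp, haptoglobin, which binds free haemoglobin and is made by neutrophils as well as liver, was at 1283, 908 and 1383 CPM in B and at 174, 583 and 686 CPM in A. All B libraries were higher than all A libraries. The log2 difference was 1.25 (SE 0.47, unadjusted p = 0.0359, adjusted p = 0.660 by edgeR, 0.0676 by DESeq2, 0.595 by limma-voom). The neutrophil marker sum was also higher in every B library, and its part in the Hp level was not tested. Flvcr1, named for a feline leukaemia virus receptor and studied as a heme exporter, had 255, 939 and 197 counts in B and 0, 5 and 2 in A (adjusted p = 0.508 by edgeR, 4.63e-05 by DESeq2, 0.0993 by limma-voom). Hmox2, the constitutive heme oxygenase, was at 145 to 212 CPM in B, against 69.1 to 222 CPM in A, and Blvra, which reduces biliverdin, at 133 to 206 CPM in B, against 97.4 to 159 CPM in A. Both overlap between the sets, and neither had a library below 69.1 CPM.

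The 20 genes of the oxidant response were listed as regulators, or as targets shared with Hmox1 and the ferritins. The factor NRF2 is known to raise many of the targets and BACH1 to repress several. Of 17 tested, 3 had no overlap, each higher in B (10.2% of all genes tested), and 6 of the 17 fitted values lay above 0 (median -0.16). Slc7a11, the cystine importer, was at 62.8, 71.8 and 36.7 CPM in B and at 0.272, 0.189 and 0.173 CPM in A. It had 3123, 4244 and 2346 counts in B and 15, 10 and 8 in A, so the sets lie far apart. Slc7a11 differed by 7.93 on the log2 scale (SE 1.98, unadjusted p = 0.00555, adjusted p = 0.508 by edgeR, 1.78e-07 by DESeq2, 0.0492 by limma-voom). Gsr, glutathione reductase, was at 1133, 972 and 807 CPM in B and at 476, 697 and 540 CPM in A. The difference was 0.66 on the log2 scale (SE 0.22, unadjusted p = 0.0219, adjusted p = 0.531 by edgeR). Prdx1 was at 542 to 824 CPM in B, against 250 to 734 CPM in A, and Gpx4, which repairs lipid peroxides, at 287 to 539 CPM in B, against 303 to 592 CPM in A, both overlapping.

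The antimicrobial iron binders Lcn2 and Ltf are granule proteins of neutrophils. Ltf, lactoferrin, was at 119, 0.423 and 15.9 CPM in B and at 0.163, 0.170 and 0.0867 CPM in A (unadjusted p = 0.0252, adjusted p = 0.565 by edgeR, 0.000195 by DESeq2, 0.612 by limma-voom). Its B libraries differ by more than 100-fold and B replicate 2 held only 25 counts. Lcn2, which binds bacterial siderophores, was at 148, 52.6 and 159 CPM in B and at 0.472, 0.322 and 117 CPM in A, so A replicate 3 lay among the B libraries. Both stand in the neutrophil list, whose sum was higher in B.

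Iron uptake (6 of 14 tested), storage and chaperones (4 of 7) and export and systemic control (3 of 10) gave 0 genes at an unadjusted p under 0.05 by edgeR, DESeq2 and limma-voom called 0 of them, and their medians were 0.30, -0.37 and -0.21. Trf, transferrin, was at 425, 578 and 392 CPM in B and at 416, 220 and 392 CPM in A. Hfe, a class I-like protein that binds the transferrin receptor, was at 204 to 831 CPM in B, against 290 to 971 CPM in A. Both were far above Tfrc itself in counts in every library. Pcbp1, a chaperone that delivers iron to ferritin, was at 79.0, 112 and 128 CPM in B and at 149, 154 and 157 CPM in A without overlap (log2 difference -0.63, SE 0.50, adjusted p = 1.00 by edgeR). Glrx3 and Bola2, which act together in iron delivery, were at 84.9 to 169 and 20.5 to 164 CPM in B, and at 0.145 to 148 and 24.0 to 159 CPM in A. Slc11a2 was at 13.8 to 63.5 CPM in B, against 0.0757 to 99.0 CPM in A, Mcoln1 at 20.4 to 29.9 CPM in B, against 0.130 to 107 CPM in A, Smad4 at 3.80 to 118 CPM in B, against 0.0726 to 16.9 CPM in A, and Bmpr2 at 0 to 17.7 CPM in B, against 0 to 19.7 CPM in A.

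Heme synthesis (8 of 11 tested, median -0.40) and iron-sulfur cluster assembly (19 of 24 tested, median -0.11) likewise gave 0 genes at an unadjusted p under 0.05 by edgeR and 0 calls by DESeq2 and limma-voom. Iscu, the scaffold on which the clusters are built, was at 193 to 346 CPM in B, against 104 to 454 CPM in A. Nubp1, a cytosolic assembly factor, was at 88.1 to 139 CPM in B, against 72.0 to 153 CPM in A, and Nfu1 at 116 to 312 CPM in B, against 0.163 to 152 CPM in A. In heme synthesis, Alas1, the first enzyme, was at 40.5 to 185 CPM in B, against 0 to 78.0 CPM in A, and Urod at 0.0804 to 86.7 CPM in B, against 7.54 to 118 CPM in A. The sets overlap for each of these genes.

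**Figure D4:**
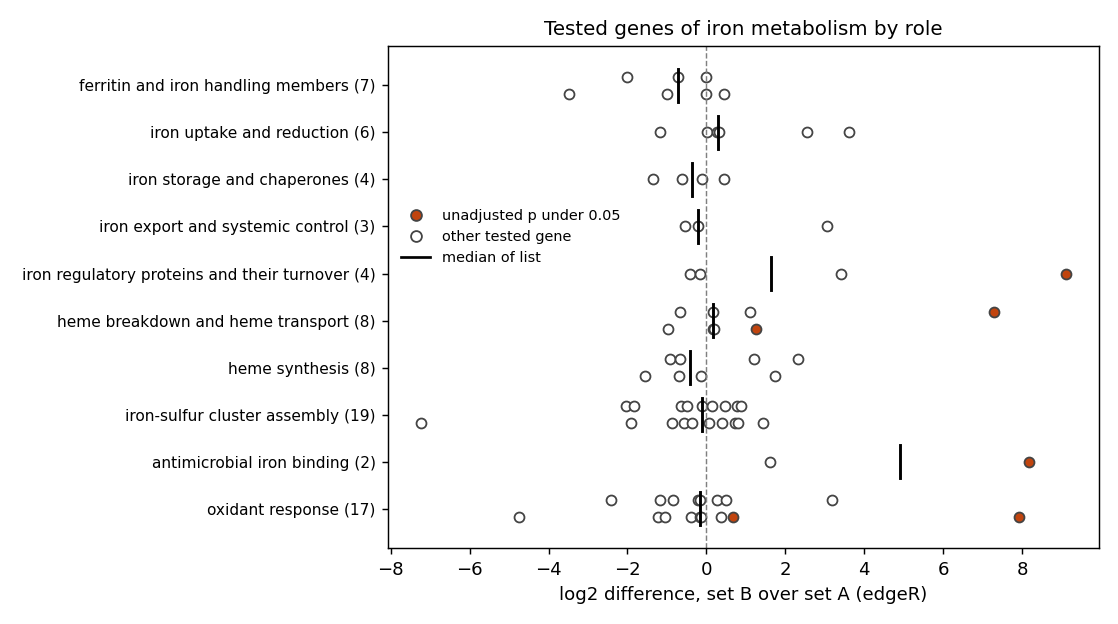
Fitted log2 difference of B over A (horizontal axis, edgeR) for each tested gene, by list (vertical axis, number tested in brackets), with a bar at the median of a list. Filled points have an unadjusted p under 0.05: 6 genes, all to the right of 0, and 0 of the 7 tested members.

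**Figure D5:**
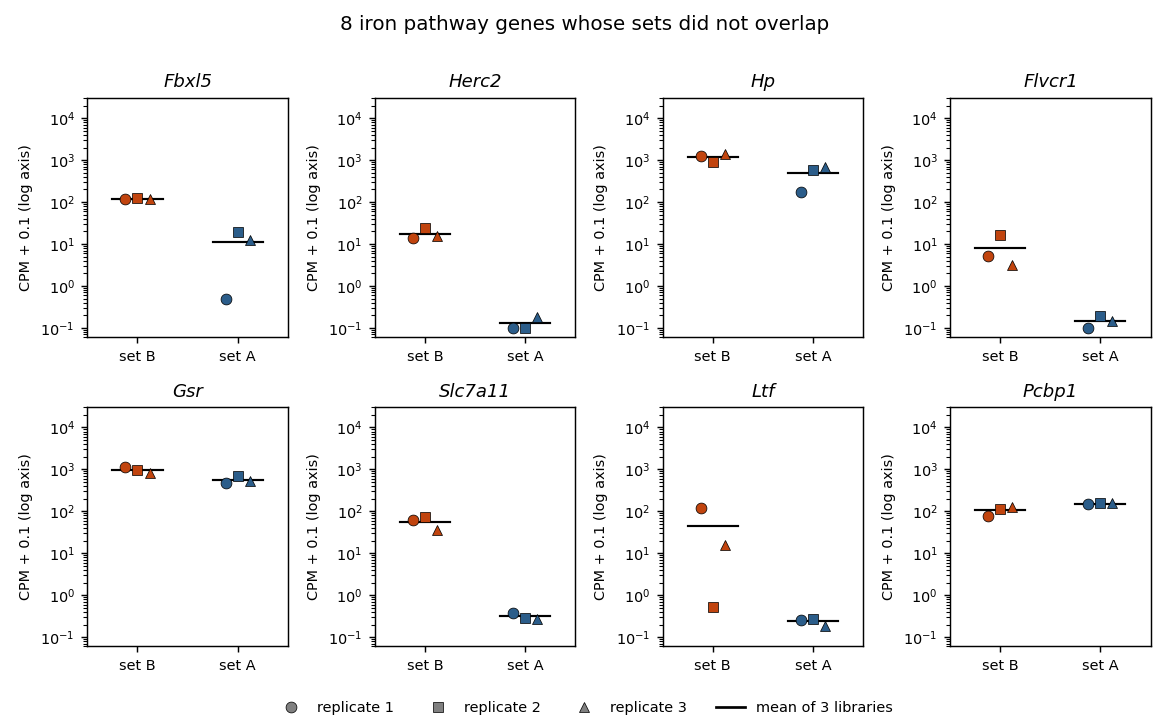
Level of 8 named pathway genes by library (vertical axis, CPM + 0.1 on a log axis; horizontal axis, set), with a line at the mean of a set. Fbxl5, Herc2, Hp, Flvcr1, Gsr, Slc7a11 and Ltf are higher in all B libraries than in any A library, and Pcbp1 is lower; 0 of the 8 passed an adjusted p of 0.05 by edgeR.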

How the data were processed

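The authors deposited raw counts per Ensembl gene, 1 column per library, not normalized. HISAT2 2.2.1, cutadapt 1.9 and DESeq2 are named, without roles, per the submitters' processing notes. No counting program, genome build, annotation or strand setting was given in the sources used here. Per the labels' protocols the libraries were made with Smart-seq2, which has no molecular identifiers, and read as pairs of 150 bases. Low counts were more often 4 (5211 values) than 3 (819) or 5 (660). Symbols came from a table in which 55141 of 55401 identifiers matched.

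B was compared with A over all 6 libraries with edgeR 4.0.16 (R 4.3.3), using TMM scaling after filterByExpr kept 9196 genes, robust glmQLFit, glmQLFTest and Benjamini-Hochberg adjustment over all genes tested. Standard errors are the log2 difference over the square root of F, and intervals use the test's degrees of freedom. Shares and ratios were compared by exact 2-sided permutation tests. DESeq2 1.42.0 and limma-voom (limma 3.58.1) ran on the same genes. The limma-voom fit used sample quality weights, which give each library its own weight. The fits were tested on simulated data that gave every gene the same dispersion, so the uneven spread of the members was not represented. Same-numbered libraries of the sets were not treated as paired in the main fit (correlations of deviations 0.028, -0.0241 and 0.0261, which cannot exclude a pairing).

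The members and lists were chosen with earlier results of these data known. Named genes are the 8 members, in each list up to 3 tested genes with the highest mean CPM, and up to 5 further genes with the smallest unadjusted p under 0.05. The other lists (platelet, T cell, B cell and dendritic cell markers) are summarised with the observations. Some genes that the rule or the lists hold are not reported here.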

Additional observations from a re-analysis of the deposited data

How the results depend on the processing

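The count of members past the threshold was 0 under all 16 alternatives, which were scaling by RLE or by library size alone, no filter beyond 1 count in any library, a stricter filter (a mean of 10 CPM or more, and 10 counts or more throughout 1 set), DESeq2, limma-voom, robust=FALSE, a replicate block, counts divided by 4, an adjusted p under 0.01, and each of the 6 libraries left out. Over all genes edgeR called 2. DESeq2 called 595, limma-voom 202, and the replicate block and an adjusted p under 0.01 gave 0 each; leaving out a library gave 0 to 1. Of the iron pathway genes DESeq2 called 4 and limma-voom 2, and the other alternatives gave 0. The ferritin share difference was -0.0393 to 0.176 percentage points with a library left out, reversed without B replicate 3, and the heavy to light chain difference was -0.110 to 0.136 on the log2 scale, reversed without A replicate 2 and without B replicate 1; the cause was not tested. With the replicate block these were 0.0972 and 0.0095, the main values. They had to be the same, since the mean of same-numbered differences equals the difference of means. Adding the ferritin copies, leaving out mitochondrially encoded genes and leaving out the 20 most abundant other genes (chosen after seeing the data) kept the direction of the share.

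The Ftl1 log2 difference changed sign to -0.12 with RLE scaling and by DESeq2, -0.0361 with no filter, -0.0218 with the stricter filter, -0.0216 with the replicate block, and -0.21 by limma-voom, with -0.147 to 0.104 over the libraries left out. Fth1 was 0.10 with library size alone and -0.0748 to 0.0834 over the libraries left out. Ireb2 was 1.605 with the replicate block and -1.78 to 2.39 over the libraries left out, and Slc40a1 was -0.431 to 1.04 over the libraries left out and 2.10 by limma-voom. Slc11a1, Hmox1 and Ncoa4 stayed below 0 in all their alternatives, 15, 15 and 14 (Ncoa4 did not pass the stricter filter). RLE scaling moved the median of all genes by -0.10, limma-voom by 0.505 and the replicate block by 0.306. The values do not settle whether the replicate numbers pair the libraries: of the 3 B libraries, 2 correlated best with the A library of their own number. The block changed no call among the members. The main fit called 0 of them and the block called 0 of all 9196 genes, so this cannot show whether pairing matters.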

Other observations

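Further marker lists were read beside the members. The 7 platelet markers reached a summed level of 540 to 852 CPM in B, against 1061 to 1544 CPM in A, and the 8 T cell markers 213 to 375 CPM in B, against 481 to 1135 CPM in A, with Cd4 at 0. The 6 B cell markers reached 3555 to 4771 CPM in B, against 2936 to 4653 CPM in A, and the 7 dendritic cell markers 62.3 to 105 CPM in B, against 91.4 to 348 CPM in A.

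Thioredoxin reductase 1 (Txnrd1) and Pcbp2 were further pathway genes without overlap, and they were chosen for mention after their values were seen. Txnrd1 was at 51.6, 50.7 and 15.9 CPM in B and at 0.581, 0.246 and 11.99 CPM in A (adjusted p = 1.00 by edgeR). Pcbp2 was at 33.4, 0.169 and 61.9 CPM in B and at 97.4, 62.7 and 70.9 CPM in A (adjusted p = 1.00 by edgeR).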
